A study of Homo sapiens with 4 samples.

Results

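The genes described here are 8 CC chemokines, CCL1, CCL2, CCL3, CCL4, CCL5, CCL7, CCL8 and CCL13. Every gene probe that carries 1 of these names was taken, which gave 7 probes for 7 of the 8 genes, out of 58185 gene probes and 43311 gene names on the array. No probe analysed here was named CCL4. The genes were chosen because AZA/vehicle ratios of CC chemokines on these same arrays were already known, so those ratios are given as a description, and no test is attached to them. Of the 7 genes with a probe, CCL1, CCL2, CCL3 and CCL5 gave a signal well above background on at least 1 array, and CCL7, CCL8 and CCL13 gave none on any array.

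CC chemokines are small secreted proteins that carry a pair of adjacent cysteines near the amino terminus. They bind G protein-coupled receptors of the CCR family on leukocytes and direct the migration of these cells, and several are released rapidly by activated myeloid and lymphoid cells. CCL2, CCL7, CCL8 and CCL13 are monocyte chemoattractant proteins that act largely through CCR2 or CCR3, CCL3 and CCL5 are ligands of CCR1, and CCL1 is a ligand of CCR8. In marrow these proteins take part in the traffic of monocytes and other leukocytes, and CCL3 is also known as an inhibitor of the proliferation of hematopoietic stem and progenitor cells.

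MDS-L is an established cell line derived from a myelodysplastic syndrome, and MDS-L/CDA is its derivative that the authors made resistant to 5-azacytidine (AZA) by transducing CDA, a deaminase that inactivates cytidine analogues. AZA is a cytidine analogue that is incorporated into nucleic acids and inhibits DNA methyltransferases. Each line was exposed to vehicle (0.1% DMSO) or to 1 μM AZA for 72 h, and total RNA was hybridized to 4 one-colour arrays, 1 per condition. All cultures grew in medium with serum and IL-3 (20 ng/mL by the labels), so IL-3 was present with and without AZA. The dose is written as 1 mM in some label fields, and the treatment field of 2 arrays, MDS-L with AZA and MDS-L/CDA with vehicle, names the opposite treatment, whereas title, source name and description give the assignment used here. How many clones make up MDS-L/CDA was not given in the sources used here.

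All 4 arrays lay on 1 slide. Between 32.6% and 36.5% of the gene probes were well above background, and no spot was saturated. The probe for CDA was well above background on 0 of the 4 arrays (signal relative to the 75th percentile of its array, called scaled signal, 0.105 and 0.0943 in MDS-L with vehicle and AZA, 0.11 and 0.146 in MDS-L/CDA), and whether it lies within the transduced sequence was not given in the sources used here, so the identity of MDS-L/CDA rests on the labels. Of 8 markers of the cell line, which include CD34, KIT, CD33 and PTPRC, 8 passed the background limit in MDS-L with either treatment and 7 in MDS-L/CDA, where SPN did not. Among them KIT, the stem cell factor receptor, was increased with AZA, from 0.503 to 23.8 in MDS-L (ratio 47.3) and from 0.346 to 1.24 in MDS-L/CDA (ratio 3.58), and CD38 was decreased in MDS-L (ratio 0.359). The part of these shifts in the chemokine values was not tested. Since each condition is 1 array, the spread between cultures is unknown.

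The probes that read CCL2, CCL3, CCL1 and CCL5 are shown because all values for these genes rest on them. Their first 30 bases of 60, 5′ to 3′ as the array design gives them, are as follows.
CCL2: gaaattgcttttcctcttgaaccacagttc
CCL3: tgcttttgttcagggctgtgatcggcctgg
CCL1: gagaggcaaagaggcctgcgccttggacac
CCL5: agatgagctaggatggagagtccttgaacc
In hg19 the CCL2 probe lies at chr17:32584050-32584109 on the plus strand. The CCL1 probe lies at chr17:32687609-32687668, the CCL5 probe at chr17:34199332-34199391 and the CCL3 probe at chr17:34415605-34415664, all on the minus strand. No gene annotation of that build was used, so the exon or untranslated region under each probe is not given. By local alignment of the 60-base probes of CC chemokines with each other, the best score between 2 probes was 11, counting 1 per matching base less penalties for mismatches and gaps, although a probe may still bind transcripts of near-identical gene copies.

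Signals are given as scaled signal, the background-subtracted spot intensity divided by the 75th percentile of the gene probes on the same array, so that 1 is the level of that percentile. The lowest signal counted as well above background by the scanner software corresponded to a scaled signal between 0.19 and 0.296. Probes bind with different efficiency, so the level of 1 gene is not compared with that of another. A gene is called increased or decreased when the ratio is at least 2 in that direction, the Z score is at least 2 in size, and the brighter array is well above background. The call uses the computed ratio also where the dimmer signal is not well above background, and the fold is then printed as a lower bound, which can be under 2. The Z score is the log2 ratio divided by the SD of log2 ratios among probes of similar signal.

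AZA was accompanied by higher CCL2 signal in both lines. The scaled signal of CCL2 was 3.04 in MDS-L with vehicle and 104 with AZA, and 3.25 in MDS-L/CDA with vehicle and 54.4 with AZA. Both vehicle arrays were low and close to each other, and both AZA arrays were far above them. The array carries 10 spots of the CCL2 probe, which read 1 RNA extract and so describe technical error alone. In MDS-L the spots ran from 2.72 to 3.26 with vehicle (median 3.06) and from 97.5 to 111 with AZA (median 103). In MDS-L/CDA they ran from 2.78 to 3.62 with vehicle (median 3.24) and from 42.8 to 65.0 with AZA (median 55.3). The spots of the vehicle arrays overlapped between the lines, those of the AZA arrays did not, and within each line no vehicle spot reached an AZA spot.

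The AZA/vehicle ratio of CCL2 was 34.1 in MDS-L (log2 ratio 5.09 ± 0.10, SD over spots, n = 10 spots per array, Z score 10.2). It was 16.7 in MDS-L/CDA (log2 ratio 4.07 ± 0.20, SD over spots, n = 10 spots per array, Z score 10.6). The log2 ratio in MDS-L exceeded that in MDS-L/CDA by 1.03 ± 0.22 (SD over spots), a factor of 2.04. With 1 array per condition this difference between the lines could not be tested. It came from the AZA arrays, since the MDS-L/CDA over MDS-L ratio was 1.07 with vehicle and 0.523 with AZA. With 7 other normalizations the ratio of CCL2 ranged from 23.5 to 40.6 in MDS-L and from 11.0 to 17 in MDS-L/CDA. In MDS-L and MDS-L/CDA it was 23.5 and 16.1 with median scaling, and 40.6 and 16.4 with quantile normalization. The factor between the lines thus depends on the normalization, which the SD over spots does not cover.

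**Figure D1:**
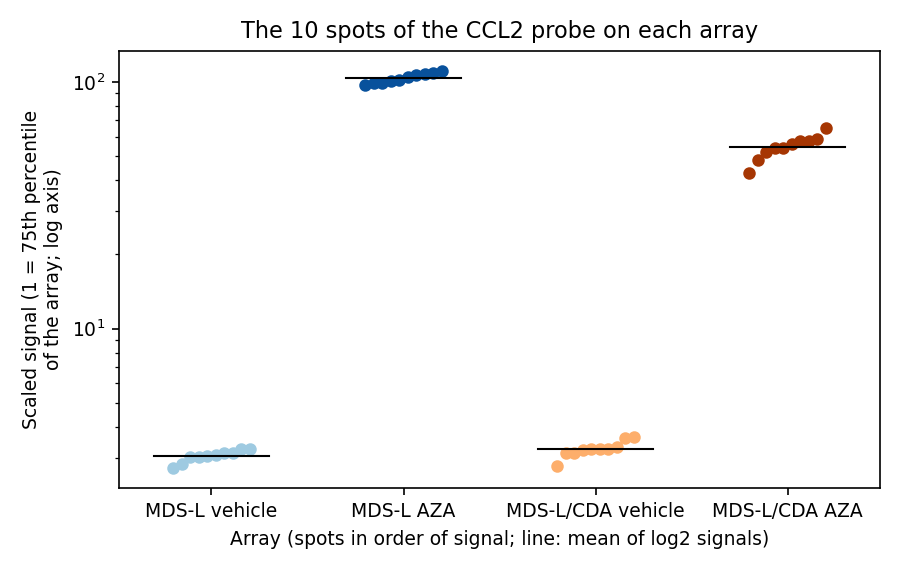
Scaled signal (log axis, 1 is the 75th percentile of the array) of each of the 10 spots of the CCL2 probe on the 4 arrays, in order of signal, with the mean of the log2 signals as a line. The spots of the vehicle arrays lie between 2.72 and 3.62, and those of the AZA arrays lie at 97.5 or higher in MDS-L and at 42.8 to 65.0 in MDS-L/CDA.

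The other monocyte chemoattractant proteins showed no such signal. CCL7, CCL8 and CCL13 stayed below the well-above-background limit on each of the 4 arrays, with scaled signals between 0.043 and 0.0862. These genes lie near CCL2 on chromosome 17. No ratio is given for them, and a level under the background of this array was not measurable.

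CCL3 was higher with AZA in both lines, and the order of the lines was the opposite of that for CCL2. Its scaled signal was 2.17 in MDS-L with vehicle and 5.87 with AZA, and 1.94 in MDS-L/CDA with vehicle and 13.7 with AZA. The vehicle arrays were again the low pair, and the highest signal was in MDS-L/CDA with AZA. The AZA/vehicle ratio was 2.70 in MDS-L (log2 ratio 1.43, Z score 2.08) and 7.09 in MDS-L/CDA (log2 ratio 2.83, Z score 5.79). The log2 ratio in MDS-L minus that in MDS-L/CDA was -1.39, which could not be tested. The MDS-L value lay close to the call threshold. The call was lost with median scaling (ratio 1.86), with normexp background correction (ratio 2.18) and with 1 SD over all probes in the Z score, while in MDS-L/CDA the ratio stayed between 4.14 and 7.22 over 7 other normalizations.

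CCL1 and CCL5 had signals at or near background without AZA. The scaled signal of CCL1 was 0.199 in MDS-L with vehicle, not well above background, and 3.56 with AZA. In MDS-L/CDA it was 0.379 with vehicle and 1.35 with AZA. The order was the same as for CCL2, highest in MDS-L with AZA and next in MDS-L/CDA with AZA. The signal with AZA was at least 17.9-fold higher in MDS-L (Z score 4.56) and 3.56-fold higher in MDS-L/CDA (Z score 3.14). After normexp background correction with an offset of 50, which compresses low signals, these ratios were 3.46 and 1.53. With median scaling the computed ratio in MDS-L was 12.3, so the bound of 17.9 holds for the reported scaling.

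CCL5 was well above background on 1 array, MDS-L with AZA. Its scaled signal was 0.188 with vehicle and 0.992 with AZA in MDS-L, and 0.0586 and 0.0583 in MDS-L/CDA. The signal with AZA in MDS-L was at least 5.23-fold higher than with vehicle, with a Z score of 2.05, just past the threshold. The call was lost with quantile normalization, with the authors' value table, with median scaling and with normexp, where the ratio was 1.68. In MDS-L/CDA both arrays were below background, so no ratio is given.

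By these calls, 4 of the 8 genes were increased by AZA in MDS-L, CCL1, CCL2, CCL3 and CCL5, beside 4.63% of all measured genes. In MDS-L/CDA 3 were increased, CCL1, CCL2 and CCL3, beside 2.49% of all measured genes. None was decreased in either line, beside 3.23% of measured genes in MDS-L and 3.79% in MDS-L/CDA. The genes were chosen on these ratios, and nothing is read from the counts against the percentages. The remaining genes in each line were not measurable on either array or had no probe.

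**Figure D2:**
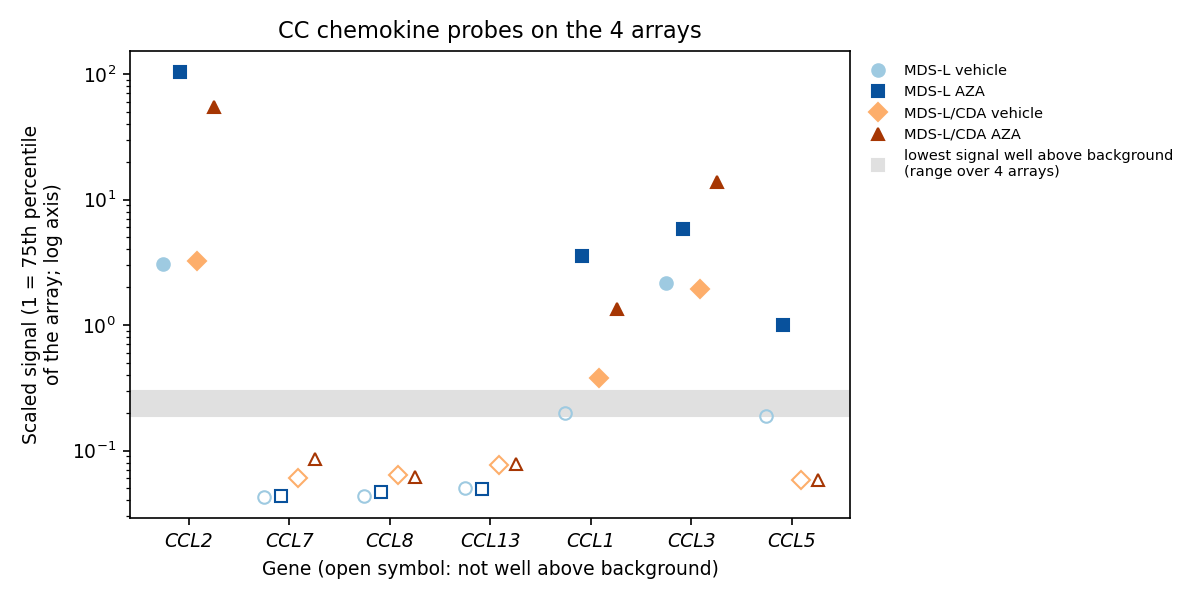
Scaled signal (log axis, 1 is the 75th percentile of the array) of the 7 probes on the 4 arrays, with open symbols for signals not well above background and a grey band for the lowest signal well above background over the arrays. CCL2, CCL1 and CCL3 stand higher with AZA in both lines, CCL5 in MDS-L, and CCL7, CCL8 and CCL13 lie below the band at 0.0862 or lower.

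Comparison of the lines used the same 4 arrays, so its values are not independent of the AZA/vehicle ratios. With vehicle, none of the 3 genes measured was called higher or lower in MDS-L/CDA than in MDS-L, beside 1.58% and 3.59% of all measured genes. The ratio was 1.07 for CCL2, 0.891 for CCL3 and at least 1.91 for CCL1. The bound for CCL1 holds for the reported scaling, and its computed ratio ranged from 1.21 to 1.96 over 7 other normalizations. The ratio of CCL2 ranged from 0.743 to 1.10 over 7 other normalizations and so lay on both sides of 1. With AZA, CCL1 (0.378) was called lower in MDS-L/CDA, CCL5 was at least 3.36-fold lower and called, and CCL2 (0.523, Z score -1.94) and CCL3 (2.34, Z score 1.89) did not pass. Over all measured genes 4.32% were called lower and 2.60% higher in that comparison. With AZA the 4 genes kept these directions under the 7 other normalizations. There the ratio of CCL2 ranged from 0.368 to 0.510, each below the reported 0.523. That of CCL3 ranged from 1.65 to 2.28, each below the reported 2.34. That CCL2 did not pass thus holds for the reported scaling, and calls of lower signal under the others are not given.

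**Figure D3:**
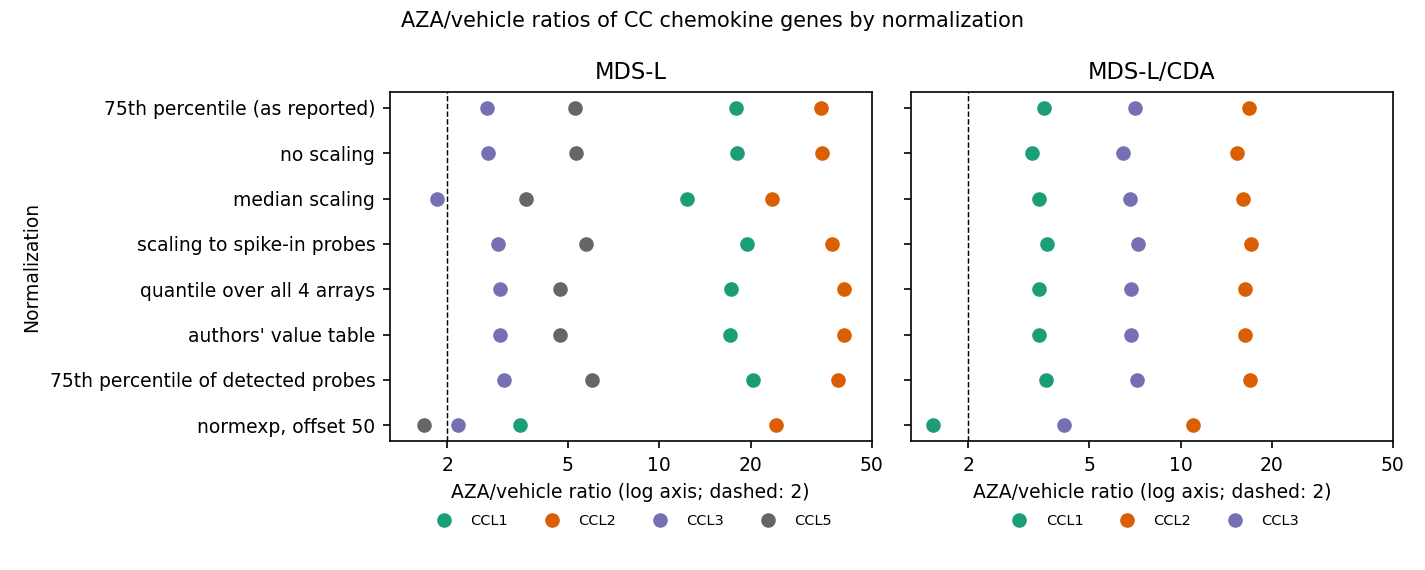
AZA/vehicle ratio (log axis) of CCL1, CCL2, CCL3 and CCL5 in MDS-L and of CCL1, CCL2 and CCL3 in MDS-L/CDA under the reported normalization and 7 others, with a dashed line at 2. All ratios are computed, not bounded, also for CCL1 and CCL5 in MDS-L, where vehicle was not well above background. CCL2 lies at 23.5 or higher in MDS-L and at 11.0 or higher in MDS-L/CDA in each, whereas CCL3 and CCL5 in MDS-L and CCL1 in MDS-L/CDA cross the line with some normalizations.

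Near-identical gene copies of CCL3 and CCL4 lie beside them on chromosome 17, and a signal of 1 copy can hold transcripts of the other. CCL3L3, a copy of CCL3, has 2 probes. The brighter had scaled signals of 0.156 and 0.514 in MDS-L with vehicle and AZA, and of 0.116 and 1.15 in MDS-L/CDA, and both vehicle signals were not well above background. It was at least 2.70-fold higher with AZA in MDS-L, not called, and at least 4.22-fold higher in MDS-L/CDA, called. CCL4L2, a copy of CCL4, has 4 probes. Its brightest probe had scaled signals of 0.27 and 2.00 in MDS-L with vehicle and AZA, a ratio of 7.42, and of 0.255 and 5.88 in MDS-L/CDA, where the vehicle signal was not well above background and the increase was at least 21.6-fold. Of its other probes, 1 was also higher with AZA, at least 3.61-fold in MDS-L and at least 8.26-fold in MDS-L/CDA, and 2 were below background on all arrays. As for CCL3, the highest signal of each measured probe of both copies was in MDS-L/CDA with AZA.

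**Figure D4:**
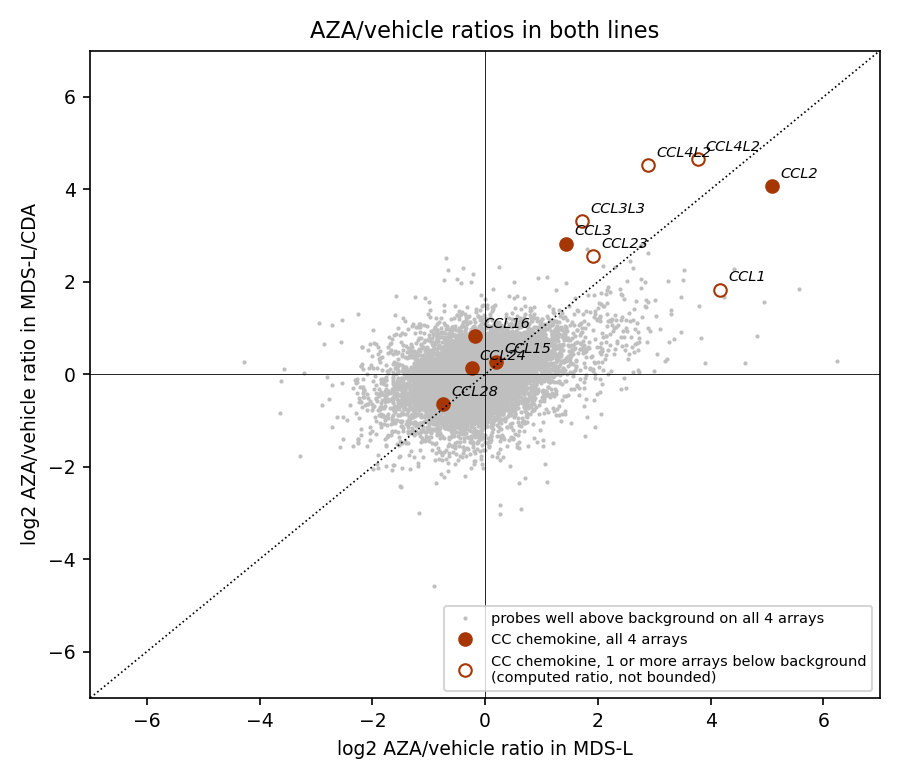
Log2 AZA/vehicle ratio in MDS-L (x axis) against that in MDS-L/CDA (y axis) for all probes well above background on the 4 arrays (grey) and for CC chemokine probes (red, open where an array was below background and the ratio is computed, not bounded). CCL2 (5.09, 4.07) and CCL1 lie below the diagonal of equal ratios, and CCL3 (1.43, 2.83), CCL3L3 and CCL4L2 lie above it.

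Among 20 other CC chemokines listed, 18 had a probe and 7 were measured in each line. In MDS-L 2 were increased, CCL4L2 and CCL23, and in MDS-L/CDA 3, CCL3L3, CCL4L2 and CCL23, with none decreased in either line. Beside this list and the gene lists that follow, 4.63% of all measured genes were increased in MDS-L and 2.49% in MDS-L/CDA. Decreased were 3.23% and 3.79%. The lists were chosen with earlier results of these data known, so nothing is read from their counts. CCL23, a chemoattractant for monocytes and resting T cells that binds CCR1, had scaled signals of 0.617 and 2.32 in MDS-L and of 0.105, not well above background, and 0.616 in MDS-L/CDA. It was 3.75-fold higher with AZA in MDS-L and at least 2.26-fold higher in MDS-L/CDA. The other 4 measured genes did not pass in either line, with ratios in MDS-L and MDS-L/CDA of 1.14 and 1.21 for CCL15, 0.885 and 1.77 for CCL16, 0.846 and 1.09 for CCL24, and 0.599 and 0.637 for CCL28. The median over the 7 genes was 0.19 in MDS-L and 0.82 in MDS-L/CDA as log2 ratio, beside -0.12 and 0.01 over all probes tested.

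Most CC chemokine genes form a cluster on chromosome 17, and the array covered 15 of them there. Along hg19, the probes of CCL7, CCL8, CCL13 and CCL1 lie 14.8, 64.1, 101 and 104 kb from that of CCL2, and those of CCL5, CCL3 and CCL4L2 lie 1615, 1832 and 1956 kb from it. Of the 15 genes, 6 were well above background on no array. In each line 6 were increased, beside 4.63% of all measured genes in MDS-L and 2.49% in MDS-L/CDA. They include CCL1, CCL2 and CCL3 in both lines and CCL5 in MDS-L. Those were chosen on these ratios, so nothing is read from the counts. Some increased genes were next to each other in this order and others were not. CCL3, CCL3L3 and CCL4L2 follow each other and were all called in MDS-L/CDA. A signal of CCL3 or CCL3L3 can hold transcripts of the other copy. CCL1 and CCL5, next to each other in this order, were both called in MDS-L. The longest gap lies between them, since they are 104 and 1615 kb from CCL2. CCL2 and CCL1 stand at the ends of the first group, and the 4 genes between them, CCL7, CCL11, CCL8 and CCL13, were below background on every array. In the second group CCL16 and CCL15, which were measured and did not pass, lie between CCL5 and CCL23.

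**Figure D5:**
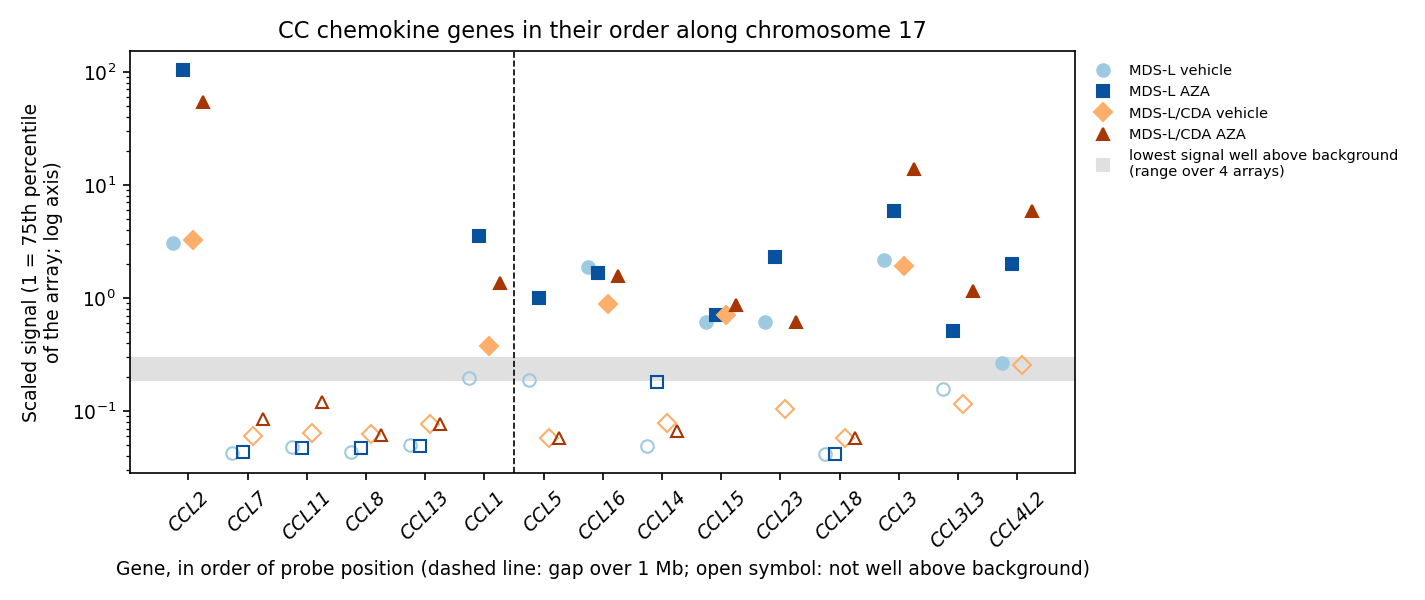
Scaled signal (log axis, 1 is the 75th percentile of the array) on the 4 arrays of 15 CC chemokine genes in their order along chromosome 17, with open symbols for signals not well above background. CCL2 and CCL1 flank 4 genes that lie below background on every array, and CCL23, CCL3, CCL3L3 and CCL4L2 stand higher with AZA in both lines.

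AZA inhibits DNA methylation at CG dinucleotides, so the CG content of the promoters is shown, though methylation was not measured on these arrays. RefSeq promoter windows, build GRCh38.p14, held 5 of the 8 genes. The 250 bases before the outermost start are printed for CCL1 (chr17:34363234-34363483, minus strand) and CCL3 (chr17:36090144-36090393, minus strand), which were increased, and for CCL7 (chr17:34269971-34270220, plus strand), which was not measurable, with CG in capitals.
CCL1: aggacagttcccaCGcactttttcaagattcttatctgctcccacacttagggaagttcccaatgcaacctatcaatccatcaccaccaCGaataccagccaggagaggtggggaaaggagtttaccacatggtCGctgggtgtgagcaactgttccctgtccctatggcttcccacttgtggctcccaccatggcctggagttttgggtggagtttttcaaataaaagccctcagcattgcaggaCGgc
CCL3: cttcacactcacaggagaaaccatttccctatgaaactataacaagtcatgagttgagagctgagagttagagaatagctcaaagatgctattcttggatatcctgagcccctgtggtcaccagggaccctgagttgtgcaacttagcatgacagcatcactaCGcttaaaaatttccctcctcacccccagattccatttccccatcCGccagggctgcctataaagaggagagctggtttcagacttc
CCL7: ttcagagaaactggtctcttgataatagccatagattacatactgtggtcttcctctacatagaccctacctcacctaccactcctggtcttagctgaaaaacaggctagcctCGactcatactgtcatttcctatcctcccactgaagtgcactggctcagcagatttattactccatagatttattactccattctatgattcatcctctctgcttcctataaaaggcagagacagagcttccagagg
These windows held 4 CG dinucleotides for CCL1, 2 for CCL3 and 1 for CCL7, and those of CCL8 and CCL13 held 1 and 4. Over all 35116 windows of 250 bases in the table the median was 11 (quartiles 3 and 23), and 34.3% of windows held 4 or fewer. The letters TATAAA, searched on the strand of the gene, were found in 4 of the 5 genes, beside 6.80% of all windows. They began 29 bases before the start in CCL3, 30 in CCL7 and CCL8, and 31 in CCL13, and were not in the window of CCL1. TGANTCA, a motif bound by AP-1, was searched on both strands and found in CCL7, beside 6.57% of all windows. The kappa B consensus was searched on both strands in a narrower form, with A or T as the sixth letter, and in a broader form with any letter there, added after the windows were seen. The narrower form was in none of the 5 genes, beside 5.21% of all windows, and the broader form was in CCL1, beside 9.96% of all windows. CCL2 and CCL5, which were increased, had no window in the table, so these features were read for 2 of the 4 increased genes.

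The receptors were mostly below background. Of 17 receptor names listed, 14 had a probe, 4 were measured in MDS-L and 3 in MDS-L/CDA. None was called in MDS-L. CCR2, the receptor of CCL2, and CCR8, the receptor of CCL1, were not well above background on any array, and neither were CCR3 and CCR4. CCR1, a receptor of CCL3 and CCL5, was well above background in MDS-L with AZA alone, at a scaled signal of 0.249 against 0.171 with vehicle. CCR7, the lymph node homing receptor that binds CCL19 and CCL21, was increased in MDS-L/CDA, with scaled signals of 0.071 with vehicle, not well above background, and 0.974 with AZA, at least 3.58-fold, while in MDS-L it was 0.778 and 0.822. CCRL2, an atypical receptor, had ratios of 2.30 in MDS-L and 2.14 in MDS-L/CDA with Z scores of 1.75 and 1.88, and was not called. The median log2 ratio of the measured receptors was 0.37 in MDS-L and 1.10 in MDS-L/CDA.

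Chemokines of the CXC, XC and CX3C classes were examined from a list of 21 names, of which 19 had a probe. In MDS-L 7 were measured and 4 were increased, and in MDS-L/CDA 4 were measured and 3 were increased. CXCL2 and CXCL3, which attract neutrophils, were increased in both lines. CXCL3 had scaled signals of 0.533 and 2.39 in MDS-L (ratio 4.48) and 0.553 and 1.37 in MDS-L/CDA (ratio 2.47). CXCL2 has 2 probes, of which 1 had ratios of 4.07 and 2.92 and the brighter 2.02, not called in MDS-L, and 2.09. PPBP, the platelet basic protein, rose from 0.447 to 5.83 in MDS-L, a ratio of 13, and from 0.27, not well above background, to 0.863 in MDS-L/CDA, at least 3.17-fold. CXCL14 was at least 2.09-fold higher in MDS-L and was not measurable in MDS-L/CDA. CXCL8, an inducible chemokine that attracts neutrophils, reached 0.281 with AZA in MDS-L and was not called. The median log2 ratio was 2.16 in MDS-L (1.06 with genes at their bound) and 1.19 in MDS-L/CDA.

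Of 23 transcription factors and feedback genes known to act on CC chemokine genes, among them the NF-kappa B subunits, AP-1 proteins and ZFP36, 23 were measured in MDS-L and 22 in MDS-L/CDA. FOS, EGR1 and JUN were increased in MDS-L, and FOS in MDS-L/CDA. FOS, an AP-1 subunit, had a ratio of 6.21 in MDS-L and 2.66 in MDS-L/CDA. EGR1, an immediate early zinc finger factor, had a ratio of 10.8 in MDS-L and was at least 2.28-fold higher in MDS-L/CDA, where it was not called. JUN, a partner of FOS, was at least 1.56-fold higher in MDS-L, and its call rests on a computed ratio of 7.20 over a vehicle signal that was not well above background. None of the NF-kappa B genes of the list was called in either line, and no gene of the list was decreased. The median log2 ratio was 0.18 in MDS-L and 0.27 in MDS-L/CDA.

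The genes with the most similar profile over the 4 arrays were sought among 17809 probes well above background on all of them, by the Euclidean distance between log2 signals after each probe's mean was subtracted. For CCL2 the nearest were TNF (distance 1.65), VWF (1.70), FCGR2A (1.88), HIST1H2AC (1.93) and HOXB5 (2.09). TNF, an inflammatory cytokine, had scaled signals of 0.804 and 17.2 in MDS-L and 0.66 and 3.18 in MDS-L/CDA, so it too was high on both AZA arrays and highest in MDS-L. For CCL3 the nearest were SGK1 (0.617), DLX2 (0.87), IL21R (0.877), CSF1 (0.88) and LAX1 (0.9). SGK1, a serum and glucocorticoid regulated kinase, had scaled signals of 0.838 and 2.27 in MDS-L and 0.902 and 3.56 in MDS-L/CDA. No probe was as near to CCL2 as these were to CCL3. The distance was not scaled to the size of the AZA/vehicle ratios, which were larger for CCL2 in both lines. It therefore does not compare the shape of the profiles alone. A distance over 4 arrays is a description, since many genes differ between the same arrays.

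Markers of cells that produce CC chemokines moved with AZA in part. In bulk RNA, more cells of a type and more RNA per cell cannot be told apart. Of 9 mast cell and basophil markers with a probe, 8 passed the background limit in MDS-L with either treatment, 5 in MDS-L/CDA with vehicle and 7 with AZA. Their summed scaled signal was 51.6 with vehicle and 312 with AZA in MDS-L, and 29.0 and 95.7 in MDS-L/CDA. In MDS-L 8 of 8 measured markers were increased, beside 4.63% of all measured genes. In MDS-L/CDA 4 of 7 were increased, CPA3, HDC, FCER1A and GATA2, beside 2.49% of all measured genes. HDC, the enzyme of histamine synthesis, went from 14.5 to 137 in MDS-L and from 6.64 to 26.8 in MDS-L/CDA. CMA1, a mast cell chymase, was at background on every array. The part of these markers in the chemokine values was not tested.

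Of 8 monocyte and macrophage markers with a probe, 1 was well above background in MDS-L with vehicle, 0 in MDS-L/CDA with vehicle and 3 on each AZA array. Their summed scaled signal was 0.856 and 1.82 in MDS-L and 0.601 and 1.72 in MDS-L/CDA. CD163, MRC1, FCGR3A, MARCO and VSIG4 were not well above background on any array. CD14, the lipopolysaccharide co-receptor, had scaled signals of 0.353 and 0.236 in MDS-L and 0.104, not well above background, and 0.53 in MDS-L/CDA. CD14, CSF1R and ITGAM were called increased in MDS-L/CDA, where the bounds were at least 1.95-fold, 1.67-fold and 1.40-fold, all under 2. In MDS-L none was called, although CSF1R was at least 4.86-fold higher (Z score 1.99) and ITGAM at least 2.09-fold higher (Z score 1.98), so these calls do not separate the lines.

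Of 9 T and NK cell markers with a probe, 1 and 3 were well above background in MDS-L with vehicle and AZA, and 2 on each MDS-L/CDA array, with summed scaled signals of 1.62, 6.78, 1.73 and 2.61. CD3D, a T cell receptor subunit, reached 4.47 in MDS-L with AZA and did not pass elsewhere. CD2, a T and NK cell adhesion molecule, was also called increased in MDS-L, from 0.217 to 1.29, at least 5.94-fold. NKG7, a cytotoxic granule protein, was 0.766 and 0.345 in MDS-L and 0.612 and 1.25 in MDS-L/CDA and was not called. The genes CD3E, CD3G, CD8A, GNLY and KLRD1 were at background throughout. B cell markers, 3 of 6 well above background on each array, had summed signals between 15.7 and 21.3, with MS4A1, PAX5 and BLK at background. Of 8 stromal markers, THY1 was well above background on 1 array, MDS-L with AZA, and the others on none. The part of these lists was not tested.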

How the data were processed

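RNA of both lines, 1 array per condition, was read on 4 one-colour Agilent arrays. The authors deposited the scanner output, which holds a linear intensity per spot after background subtraction within the array, and a value table of 51680 probes with no stated formula. The columns of that table, whose medians lie between 4.22 and 4.31, lie within 0.0391 log2 units of each other once sorted. The labelling protocol was not given in the sources used here.

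Control spots and outlier-flagged spots were left out, which removed 16 probes. Spots of 1 probe were averaged as log2 signals, from which the 75th percentile over the gene probes of that array was taken off, with a pseudocount of 0. Ratios were called at 2 with a Z score of 2, thresholds that follow the study's methods, and the Z score used 10 bins of mean signal. Genes with several probes were called when at least 1 probe passed, and their ratio in a list median is that of the brightest probe. A signal not well above background was raised to the lowest signal that passed on its array unless it already exceeded that, and the fold is then given as at least that size. With 1 array per condition AZA could not be tested within a line, nor the difference between lines. A fit of AZA over both lines with line as a term would leave 1 residual degree of freedom and was not run, because the chemokines were chosen on these ratios. The number of arrays limits the precision. The genes and gene lists were chosen with earlier results of these data known. Named beside the 8 chemokines were list genes past both thresholds, at most 6 per list, and the 5 nearest profiles of CCL2 and of CCL3. Receptors, markers and list genes that did not pass are named where a sentence accounts for them, and were chosen after their values were seen. Listed names without a probe were CCL3L1, CCL4, CCL4L1, CCRL1, CCBP2, CD68, DARC, IL8, LYZ, TPSB2, TRAC and XCL2. Of these, CCRL1, CCBP2, DARC and IL8 are older names of ACKR4, ACKR2, ACKR1 and CXCL8, which were also listed and had probes. Probe sequences and hg19 positions come from the deposited scanner output. Python 3.11.15, numpy 2.4.6, pandas 2.3.3, Biopython 1.88, matplotlib 3.10.9, R 4.3.3 and limma 3.58.1 were used, the last for normexp. The calling rule was tested on simulated data, with large changes placed in probes well above background and noise the size of spot error. That test does not cover signals near background, ratios near 2 or variation between cultures. The alternatives were 13 planned and 1 chosen after seeing the data.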

Additional observations from a re-analysis of the deposited data

How the results depend on the processing

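With 1 array per condition, only technical error could be assessed, and low signals limit CCL1 and CCL5 most, since vehicle was near background. Within a line no paired analysis was possible, with 1 array per condition. Pairing vehicle with AZA by line could have been fitted over both lines and was not run, since the chemokines were chosen on these ratios. The count of 4 genes increased in MDS-L became 2 with median scaling (CCL1 and CCL2), 2 with normexp at an offset of 50 (CCL1 and CCL2) and 2 when both arrays had to be well above background (CCL2 and CCL3). It was 3 with the authors' value table and with quantile normalization, where CCL5 was lost, and 3 with 1 SD over all probes, where CCL3 was lost. The count of 3 in MDS-L/CDA was 2 with normexp, where CCL1 was lost. No gene was called higher in MDS-L/CDA than in MDS-L with AZA, and 1, CCL3, with no limit on the Z score. The log2 ratio of CCL2 in MDS-L, 5.09, was 5.35 with quantile normalization, 4.55 with median scaling, 5.21 with scaling to spike-in probes, 4.60 with normexp, 5.34 with the authors' value table and 5.28 with the percentile taken over probes well above background on all 4 arrays, an alternative chosen after seeing the data. Each of these moved by more than the SD over spots. In MDS-L/CDA the log2 ratio of CCL2, 4.07, was 3.45 with normexp. The median log2 ratio over all probes tested in MDS-L was -0.12 as reported and -0.67 with median scaling, and the ratio of CCL3 of 1.86 under that scaling is relative to the latter. The cause of the other shifts was not tested.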
